A study of Mus musculus with 2 samples.

Results

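The platelet-derived growth factor (PDGF) system was followed through 5 genes, the receptors Pdgfra and Pdgfrb and the ligands Pdgfa, Pdgfb and Pdgfc. They were found by symbol among the 32285 genes counted in each of 2 single-cell libraries, replicate 1 and replicate 2. Both libraries hold cells of wild-type mouse pallium, the roof of the forebrain, where the cerebral cortex forms, taken at P3 (postnatal day 3). Dividing cells had been dated at E12 (embryonic day 12) with EdU, a thymidine analogue built into newly made DNA, and PI-negative, EdU-positive cells within the brightest 10% were sorted. Tissue was pooled, the design has no treatment or control, and the sort decides which cells could be seen, so levels were compared between cell groups of the same libraries.

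PDGF chains are secreted as dimers and bind receptor tyrosine kinases at the cell surface. The A and C chains act mainly through the alpha receptor, which Pdgfra encodes, the B chain binds both receptors, and signalling runs through the Ras and ERK cascade, PI3-kinase with Akt, and phospholipase C gamma. In the developing brain, Pdgfra on oligodendrocyte precursor cells (OPCs) is known for driving their proliferation and survival and for its loss when they differentiate, while Pdgfrb on pericytes answers Pdgfb from blood vessel endothelium.

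In mm10 with GENCODE annotation, Pdgfra (ENSMUSG00000029231) lies on chromosome 5 from 75152292 to 75198215 on the plus strand and Pdgfa (ENSMUSG00000025856) on the minus strand of the same chromosome from 138976014 to 138997370. Pdgfb (ENSMUSG00000000489) lies on the minus strand of chromosome 15 from 79995874 to 80014977, Pdgfc (ENSMUSG00000028019) on the plus strand of chromosome 3 from 81036416 to 81214040, and Pdgfrb (ENSMUSG00000024620) on chromosome 18. All 5 are protein-coding. Counted genes share exon positions with 3 of them, but hold few UMIs (unique molecular identifiers, the transcript counts): Gm42802 had 96 against 88514 of Pdgfra in the files, 6330403L08Rik 519 against 6080 of Pdgfa, and Gm16000 8 against 1411 of Pdgfc. Whether the counting used strand was not given in the sources used here.

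Promoters are shown for the receptor and ligand whose levels ran in opposite directions between OPCs and oligodendrocytes below. RefSeq windows of 250 bases before an annotated start (GRCm38.p6, 5′ to 3′ on the gene's strand) were available for 3 of the 5 genes, Pdgfra, Pdgfa with 2 starts, and Pdgfc. The motif searched was the E-box CANNTG, the class of site read by basic helix-loop-helix factors such as Olig2, on both strands, where it reads the same in this form. Capitals mark a match.

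Pdgfra, chr5:75152001-75152250, plus strand: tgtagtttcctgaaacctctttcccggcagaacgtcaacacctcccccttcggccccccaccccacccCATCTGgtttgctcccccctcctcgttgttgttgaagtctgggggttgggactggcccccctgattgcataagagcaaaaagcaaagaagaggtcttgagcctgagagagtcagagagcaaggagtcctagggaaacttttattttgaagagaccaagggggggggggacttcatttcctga
Pdgfa, chr5:138994945-138995194, minus strand: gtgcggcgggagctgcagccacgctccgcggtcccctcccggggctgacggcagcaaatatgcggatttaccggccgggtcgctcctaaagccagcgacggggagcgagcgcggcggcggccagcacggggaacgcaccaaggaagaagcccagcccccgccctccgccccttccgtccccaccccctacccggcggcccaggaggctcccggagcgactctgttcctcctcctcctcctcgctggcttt

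The Pdgfra window holds 1 match, whose first base lies 182 bases before the start, and neither Pdgfa window nor the Pdgfc window holds any. Of 32851 promoter windows of this length outside chromosome 18, 66.2% hold at least 1 match, so these are descriptions of the letters and not of binding. The Pdgfra window has a GC content of 54.4%, the Pdgfa windows 72.4% and 66.4%.

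The files held 13858 and 14513 barcodes with 97091962 and 108903409 UMIs, and 11228 and 10965 cells with at least 500 detected genes and at most 10% mitochondrial UMIs were kept, at medians of 7542.5 and 8523 UMIs per cell. The libraries shared 62 barcodes. Cells were grouped by marker genes outside the PDGF list, and a cell counted only if it met 1 of 9 gates. In replicates 1 and 2 this gave 3204 and 3327 OPCs (Cspg4 and Olig2), 8 and 25 Enpp6 oligodendrocytes, 1443 and 1415 Aqp4 astroglia, 1028 and 1027 Neurod2/Neurod6 glutamatergic cells, 1000 and 1048 Gad1/Gad2 GABAergic cells, and 138 and 148 C1qa cells. Small vascular groups held 13 and 20 endothelial, 6 and 7 mural and 4 and 4 fibroblast cells, and levels there rest on few UMIs.

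Check lists of 6 genes per type were each summed as CPM (UMIs scaled to the group's total), and each was highest in its own group. The mural list, however, is the same 6 genes that set the mural gate, and 5 of the 6 fibroblast genes set the fibroblast gate. For mural cells and fibroblasts the gates thus fixed this outcome, while the other lists shared no genes with the gates. The OPC list (Sox10, Lhfpl3 and others) stood at 4722 and 4703 CPM in OPCs and next highest, at 1967 and 2046 CPM, in the Enpp6 group, whose own list (Bcas1, Mbp and others) reached 10002 and 11447 CPM. The C1qa group also held a list of 5 border macrophage genes at 2517 and 2200 CPM, so it is not microglia alone. The GABAergic group carried the highest summed level of 6 dividing-cell genes, at 2746 and 2988 CPM. The endothelial group carried red blood cell genes at 50108 CPM in replicate 1 and 549 CPM in replicate 2, whose part in its values was not tested.

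Pdgfra stood highest in OPCs, at 882 CPM in replicate 1 and 965 CPM in replicate 2 (923 ± 58.6, SD, n = 2). In the other groups of over 100 cells it stood at 22.1 and 23.0 CPM in astroglia, 29.6 and 32.5 CPM in glutamatergic cells, 34.4 and 40.3 CPM in GABAergic cells, and 19.7 and 16.1 CPM in C1qa cells. Both OPC values lay far above every one of these, and 71.9% of the 83304 Pdgfra UMIs of all kept cells were in the OPC group. The order among the low groups was GABAergic, glutamatergic, astroglia, C1qa in both libraries. No neighbours in this order overlapped, but C1qa cells against astroglia did not pass the test below. Of the vascular groups, fibroblasts read 62.4 CPM (2 UMIs) and 179 CPM (6 UMIs), endothelial cells 0 and 8.65 CPM (2 UMIs), and mural cells 0 in both libraries.

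**Figure D1:**
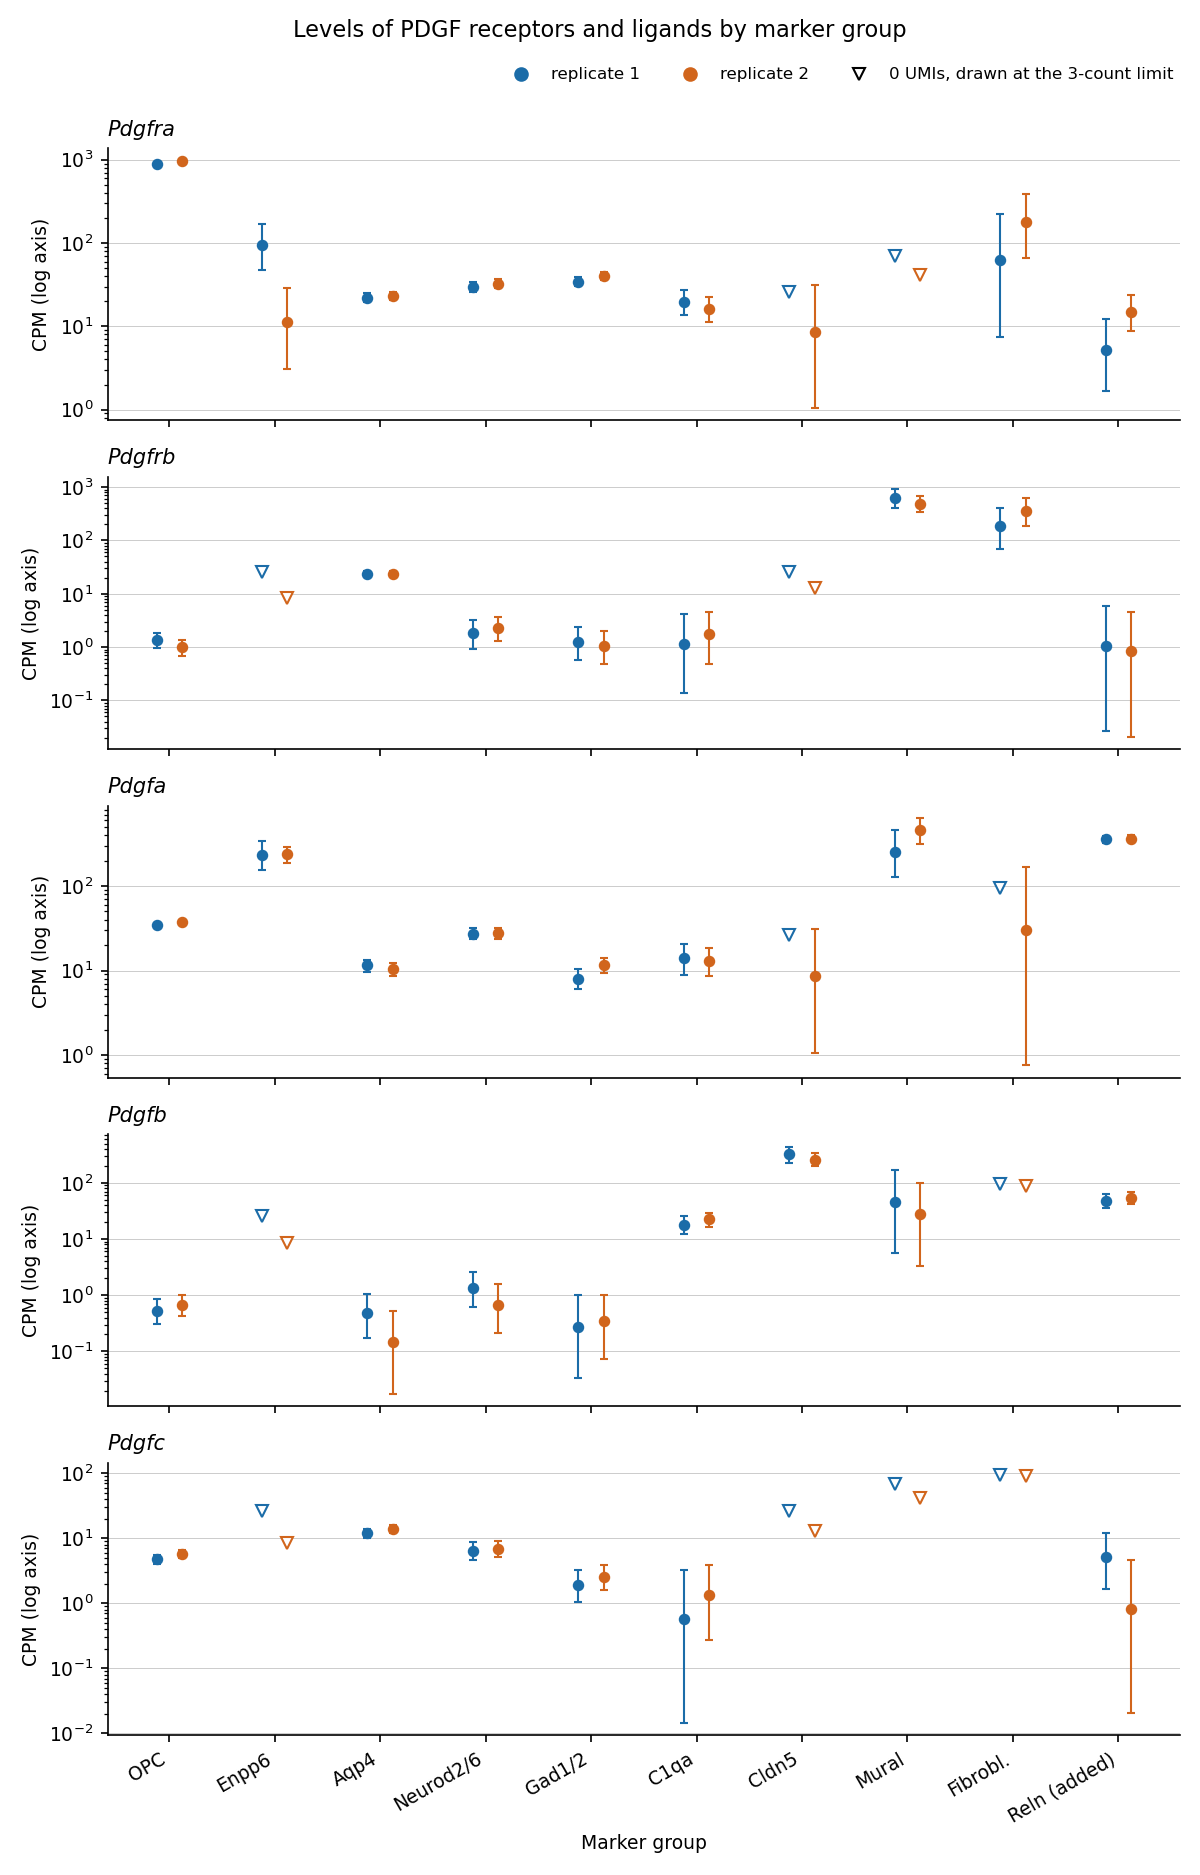
Level of each receptor and ligand gene in every marker group, in CPM on a log axis, with 1 point per library; bars are exact Poisson 95% intervals of the UMI sum, which cover counting error only, and open triangles mark groups with 0 UMIs at the limit that 3 counts allow. Pdgfra is highest in OPCs, Pdgfrb in mural cells, Pdgfb in endothelial cells and, among the larger groups, Pdgfc in astroglia, while Pdgfa has high points in the Enpp6, mural and Reln groups.

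Nearly all OPCs had Pdgfra. At least 1 UMI was seen in 95.8% of OPCs in replicate 1 (95% exact Clopper-Pearson interval 95 to 96.4) and 96.1% in replicate 2 (95.4 to 96.7), with a median of 7 and 8 UMIs per cell and a 5th to 95th percentile range of 1 to 21 and 1 to 25. After each cell was thinned to 2000 UMIs, the shares were 78.8% and 79.5% in OPCs, 3.74% and 4.17% in astroglia, 4.45% and 4.99% in glutamatergic cells, 5.77% and 5.34% in GABAergic cells, and 1.56% and 3.40% in C1qa cells. Unthinned, these 4 groups read 11.5% and 13.1%, 10.2% and 11.8%, 15.2% and 17.1%, and 13.8% and 12.8%. The share outside OPCs therefore moved with depth, and thinned it was at most 5.77% in any library of these 4 groups.

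The low Pdgfra levels were set beside the 6 OPC check genes. In astroglia, Pdgfra stood at 2.5% and 2.39% of its OPC level, below all 6 genes, whose range was 3.17% to 24.5% in replicate 1 and 3.08% to 24.5% in replicate 2. In C1qa cells it stood at 2.24% and 1.66%, again below the lowest of the 6, Lhfpl3 at 2.81% and 1.73%. In glutamatergic cells it stood at 3.36% and 3.37% against a lowest value of 4.40% and 3.64%. In GABAergic cells, at 3.90% and 4.18%, it lay within the range of the 6 genes (3.48% to 27.1% and 4.09% to 29.0%). Relative to OPCs, Pdgfra in these groups was thus near or under the lowest of the 6 other OPC genes, and the part of free RNA in these low levels was not tested.

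**Figure D2:**
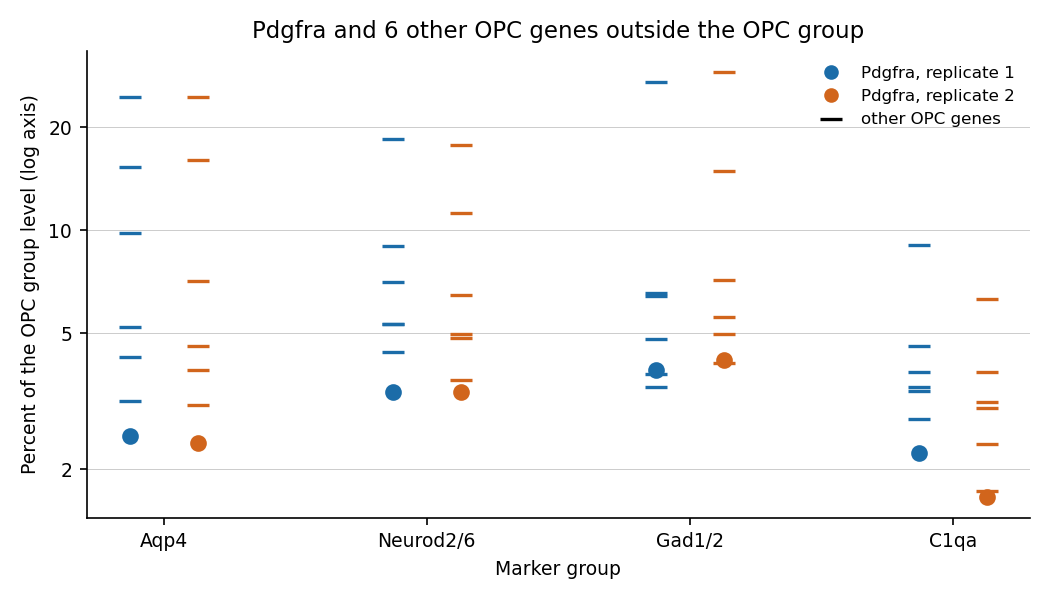
Pdgfra (circles) and the 6 OPC check genes (dashes) in 4 other groups, each as a percent of its own level in OPCs of the same library, on a log axis. Pdgfra lies below all 6 genes in Aqp4, Neurod2/6 and C1qa cells of both libraries and inside their range in Gad1/2 cells.

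Pdgfrb had its highest level in mural cells, the pericytes and smooth muscle of vessels, at 626 CPM (27 UMIs, in 4 of 6 cells) in replicate 1 and 484 CPM (35 UMIs, in 4 of 7 cells) in replicate 2. Without cells that also met the Reln gate described below, 5 and 4 mural cells remained, at 1215 and 2044 CPM. Fibroblasts followed with 187 and 358 CPM, and Enpp6 and endothelial cells had 0 Pdgfrb UMIs. Among the larger groups astroglia stood apart at 23.6 and 23.7 CPM (23.7 ± 0.0605, SD, n = 2). OPCs read 1.36 and 0.98 CPM, glutamatergic cells 1.81 and 2.26, GABAergic cells 1.24 and 1.05, and C1qa cells 1.16 and 1.78 CPM. Of these 4 low groups glutamatergic cells were highest in both libraries, and the order of the others changed between libraries. Astroglia held 299 and 330 Pdgfrb UMIs, and 40.6% of the 1548 in all kept cells.

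The astroglial Pdgfrb was spread thinly. At least 1 UMI was seen in 17.1% and 18.6% of astroglia but in 1.16% and 0.72% of OPCs, which have a similar median depth (8728 and 9715 UMIs in astroglia, 8822 and 9558 in OPCs). Thinned to 2000 UMIs, the shares were 5.28% and 5.06% in astroglia and 0.326% and 0.187% in OPCs. The mural level was 26.5 and 20.4 times the astroglial one (51.1 and 85.9 times without cells of the Reln gate). Within astroglia, subsets chosen after the data had been seen differed: non-dividing cells stood at 28.8 and 27.4 CPM against 10.5 and 12 CPM in dividing cells (at least 2 UMIs of Mki67 and Top2a together), a ratio of 2.74 and 2.28. Cells with at least 2 UMIs of Gfap, an intermediate filament of astrocytes and radial glia, stood at 38.4 and 29.3 CPM, and cells with none at 16.9 and 19.4 CPM. In both splits the 2 libraries gave the same direction, and no test was made.

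Pdgfa, the ligand of the alpha receptor, was highest among the planned gates in Enpp6 oligodendrocytes and mural cells. Enpp6 cells read 235 CPM (27 UMIs in 8 cells) and 237 CPM (85 UMIs in 25 cells), and OPCs 34.4 and 37.3 CPM (35.9 ± 2.00, SD, n = 2). Glutamatergic cells followed at 27.3 and 27.5 CPM, C1qa cells at 13.9 and 12.9, astroglia at 11.5 and 10.3, and GABAergic cells at 7.97 and 11.6 CPM. The Enpp6 values lay above both OPC values, and the OPC values above the glutamatergic ones, the C1qa values lay just above the astroglial ones, and the GABAergic values lay on both sides of them. Endothelial cells and fibroblasts held 2 and 1 Pdgfa UMIs, all in replicate 2. The OPC group, the largest, held 40.4% of the 5754 Pdgfa UMIs.

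A further gate, chosen after the data had been seen, took cells with at least 2 UMIs of Reln and at least 1 of Trp73, Lhx1 or Lhx5 together, genes known from Cajal-Retzius neurons, the early-born Reln-secreting cells at the brain surface. It left 72 and 79 cells that met no other gate, and their Pdgfa level was 356 and 362 CPM (359 ± 4.67, SD, n = 2), with a UMI in 86.1% and 87.3% of cells (49.3% and 65.4% after thinning to 2000 UMIs). That is 11.2 and 10.8 times the level in OPCs and 1.51 and 1.53 times that in Enpp6 cells. These cells were in the ungated remainder before, where they held 46.0% and 55.6% of its Pdgfa UMIs.

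Some cells of the planned groups met the Reln gate too, and leaving them out lowered several Pdgfa levels. In OPCs, 14 and 18 such cells held 8.76% and 11.1% of the Pdgfa UMIs, and the level without them was 31.8 and 33.6 CPM. In glutamatergic cells, 7 and 5 cells held 18.8% and 15.0%, leaving 22.7 and 23.7 CPM. In GABAergic cells, 1 and 4 cells held 1.72% and 32.3%, leaving 7.85 and 7.94 CPM, below the 9.85 and 9.95 CPM left in astroglia. C1qa cells then read 8.82 and 12.9 CPM, on both sides of astroglia. In mural cells, 1 and 3 cells held 10 of 11 and 32 of 33 UMIs, and the level fell from 255 and 456 CPM to 45.0 and 58.4 CPM, so the mural Pdgfa value rests on them. Scrublet, a doublet caller, marked 7 of the 14 and 4 of the 18 OPC barcodes and none of the mural ones as doublets. No Enpp6 cell met the Reln gate.

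Pdgfb, the ligand of both receptors, was highest in endothelial cells, at 321 CPM (37 UMIs in 13 cells) and 259 CPM (60 UMIs in 20 cells), with a UMI in 76.9% and 75% of cells. The Reln-gate cells read 47.9 CPM (46 UMIs) and 54.6 CPM (66 UMIs), with a UMI in 47.2% and 57.0% of cells. C1qa cells followed at 18.0 CPM (31 UMIs) and 22.3 CPM (50 UMIs), with a UMI in 18.8% and 25.7%, or 3.91% and 4.76% after thinning to 2000 UMIs. Mural cells read 46.4 and 27.6 CPM from 2 UMIs in each library, and 0 without cells of the Reln gate. The endothelial, Reln-gate and C1qa groups did not overlap in either library, with the endothelial level 6.70 and 4.75 times the Reln-gate level and the Reln-gate level 2.63 and 2.45 times the C1qa level. OPCs read 0.53 and 0.67 CPM, astroglia 0.47 and 0.14, glutamatergic cells 1.36 and 0.66, and GABAergic cells 0.27 and 0.35 CPM. Without cells that also met the Reln gate, OPCs fell to 0.067 and 0.117 CPM, which is 2 and 4 UMIs in each library's whole group. Enpp6 cells and fibroblasts had 0 Pdgfb UMIs.

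**Figure D3:**
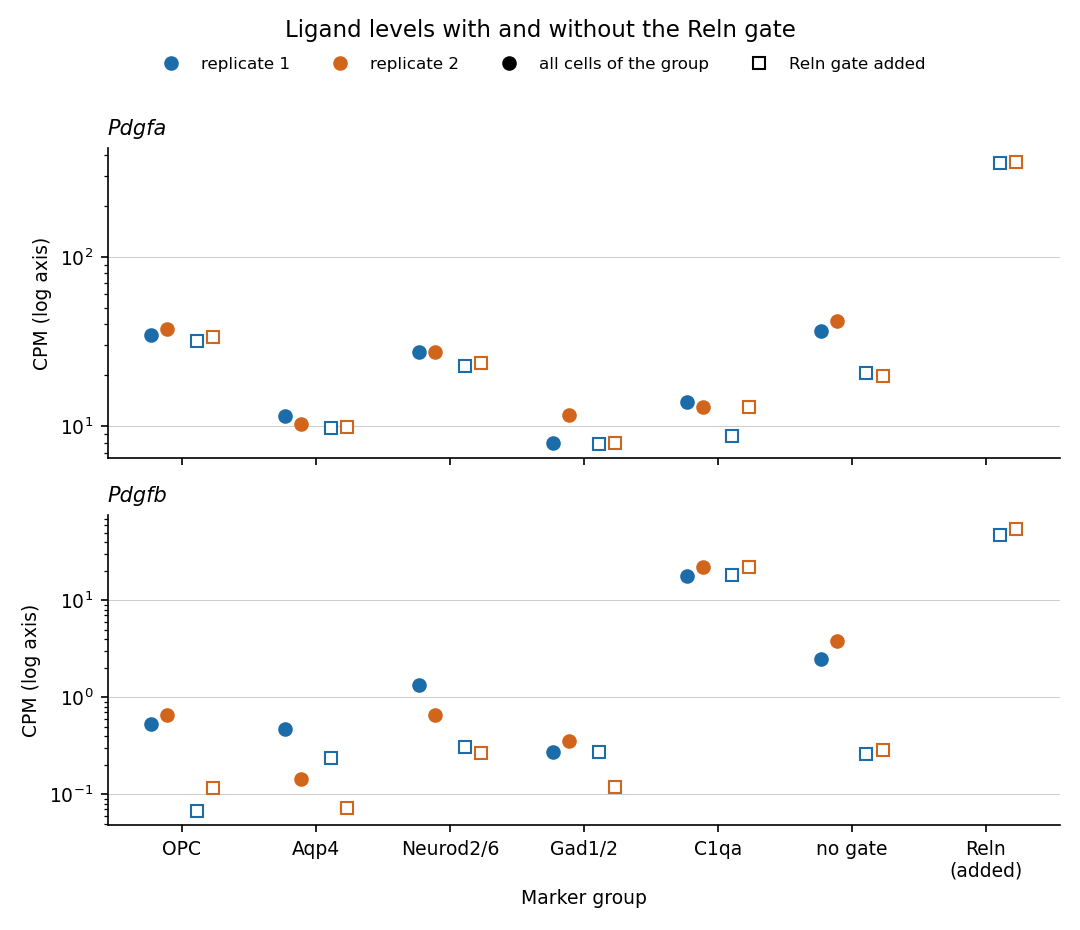
Pdgfa and Pdgfb levels in CPM on a log axis for each library, before (circles) and after (squares) the Reln gate was added and cells meeting it together with another gate were left out. The Reln group lies above all others shown for both ligands, and the ungated cells move down most, from 36.5 and 41.9 to 20.7 and 19.9 CPM for Pdgfa and from 2.51 and 3.77 to 0.258 and 0.284 CPM for Pdgfb.

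Pdgfc, the other ligand of the alpha receptor, was highest among the larger groups in astroglia, at 12.1 and 14.2 CPM (13.1 ± 1.46, SD, n = 2). Glutamatergic cells read 6.49 and 6.90 CPM, OPCs 4.74 and 5.73, GABAergic cells 1.92 and 2.58, and C1qa cells 0.58 and 1.34 CPM (1 and 3 UMIs). These 5 groups stood in the same order in both libraries and no neighbours overlapped. The Enpp6, endothelial, mural and fibroblast groups had 0 Pdgfc UMIs. For mural cells and fibroblasts the limit that 3 counts allow over both libraries is 26.0 and 45.7 CPM. Both lie above the astroglial level, so these groups could not be placed below astroglia. For endothelial cells the limit is 8.65 CPM over both libraries. For Enpp6 cells the limit that 3 counts allow is 6.34 CPM over both libraries, above the OPC level, so a difference could not be seen at this depth. A Pdgfc UMI was seen in 9.77% and 11.9% of astroglia. Pdgfd, the remaining ligand of the family and not among the 5 genes, stood at 3.48 and 4.17 CPM in astroglia, which held 61.1% of its 167 UMIs, and at 0.133 and 0.145 CPM in OPCs.

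Differences between groups were tested on UMIs summed per library and group with edgeR's quasi-likelihood test, the library as a block and Benjamini-Hochberg adjustment over all genes tested, at 0.05. The fits scale the sums by TMM and the CPM printed here do not, so fold changes and ratios of CPM can differ in size or direction. Nothing in the labels says that the libraries came from separate pools of animals, so these p-values rest only on the spread between the 2 samples, which may be technical. Each model estimates that spread over all its groups together, so it can be smaller than the spread within the groups compared.

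Along the oligodendrocyte lineage, receptor and ligand ran in opposite directions. Pdgfra was 28.5-fold higher in OPCs than in Enpp6 oligodendrocytes (log2 fold change 4.84 ± 0.22, SE; edgeR adjusted p = 3.79e-54), and Pdgfa was 6.74-fold lower (log2 fold change -2.75 ± 0.20; edgeR adjusted p = 3.97e-29). Thus 1 of the 5 genes was called higher and 1 lower, where 13.5% of all 14555 genes tested were called, 6.88% higher and 6.63% lower. Pdgfrb, Pdgfb and Pdgfc had 0 UMIs in the Enpp6 group and no call (edgeR adjusted p = 0.649, 0.779 and 0.195). The Pdgfra level of the Enpp6 group differed between libraries, 95.8 CPM (11 UMIs in 2 of 8 cells) against 11.2 CPM (4 UMIs in 4 of 25 cells). A log2 ratio of TMM-scaled CPM with a prior count added, not a refit, was 6.43 without replicate 1 and 3.35 without replicate 2. The SE of 0.22 does not cover this difference between the libraries. The fit used groups of at least 5 cells, a minimum chosen after the data had been seen because replicate 1 held 8 Enpp6 cells.

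Cells that met both the OPC and the Enpp6 gates, 9 in each library, gave an intermediate receptor level and a high ligand level. Their Pdgfra stood at 488 and 216 CPM, below both OPC values and above both Enpp6-only values. Their Pdgfa stood at 274 and 270 CPM, near the 235 and 237 CPM of Enpp6-only cells. Other gates gave a different picture: with Sox10 and Lhfpl3 for OPCs and Bcas1 for oligodendrocytes, 281 and 293 Bcas1-only cells stood at 431 and 517 CPM of Pdgfra and 28.0 and 37.0 CPM of Pdgfa. The receptor difference kept its direction with these gates, at a log2 fold change of 0.94 (edgeR adjusted p = 3.52e-24), and the ligand difference was lost, at -0.011 (edgeR adjusted p = 0.973).

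**Figure D4:**
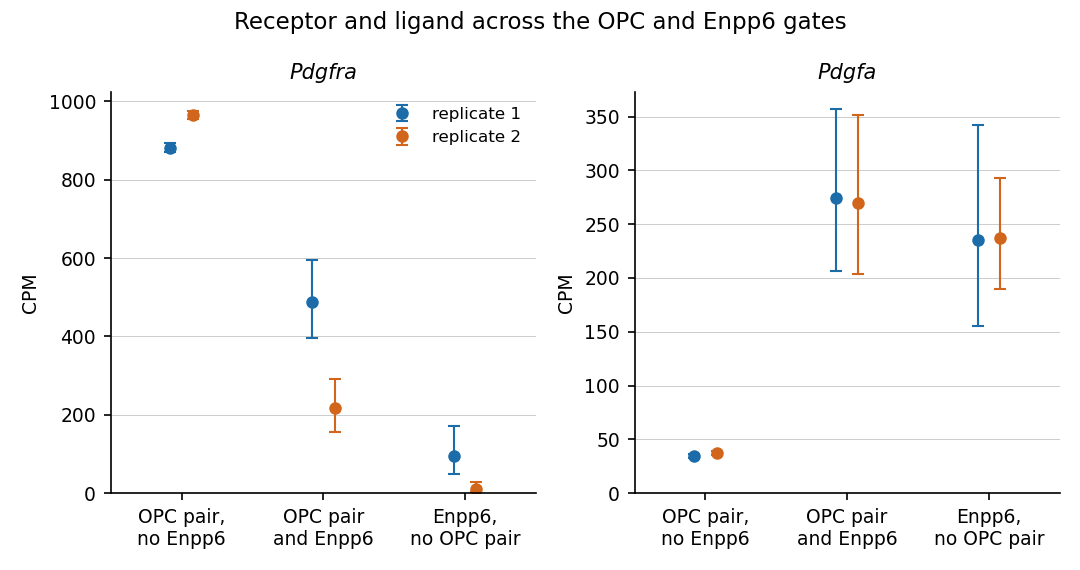
Pdgfra and Pdgfa levels in CPM in cells with OPC markers only, with both gates and with Enpp6 only, 1 point per library with exact Poisson 95% intervals for counting error. Pdgfra goes down over the 3 groups in each library, while Pdgfa is near 36 CPM in OPCs and between 235 and 274 CPM in both Enpp6-positive groups.

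Within OPCs, receptor and ligand were seen together in about as many cells as their separate shares give. After thinning to 2000 UMIs, 148 cells of replicate 1 (4.82%) and 169 cells of replicate 2 (5.26%) held a UMI of both Pdgfra and Pdgfa. The product of the shares gives 4.80% and 5.62%.

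Pathway genes were taken from lists of ligand processing, receptor adaptors, the Ras, ERK and Akt cascade, feedback regulators and ERK response genes, 75 genes of which 73 were tested. Between OPCs and Enpp6 cells, 9 of 11 tested ERK response genes were called higher in OPCs and none lower (81.8%, beside 13.5% of all genes). The list median log2 fold change was 1.92 beside 0.26 over all genes. With genes at 0 set to their bound, and Fosl2 left out because its level gave no bound, it was 1.91. Etv4, an ETS transcription factor, stood at 119 and 124 CPM in OPCs and 8.71 and 2.79 CPM in Enpp6 cells. Its relative Etv5 stood at 62.1 and 64.3 CPM against 0 UMIs, at least 9.98-fold higher. Ccnd1, a cyclin of the G1 phase, stood at 468 and 486 CPM against 131 and 72.6 CPM.

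Of the feedback regulators, 8 of 17 were called higher in OPCs and 1 lower, or 52.9% beside 13.5% of all genes (median 1.06, or 0.89 with bounds and Inpp5d, which gave none, left out). Spry4, an inhibitor of receptor tyrosine kinase signalling, stood at 95.8 and 102 CPM against 0 UMIs, at least 15.6-fold higher. Dusp6, an ERK phosphatase, read 55.9 and 56.8 CPM against 0 and 2.79 CPM. Of 8 tested ligand-processing genes, 3 were called higher and none lower (37.5%), among them Lrp1, an endocytic co-receptor, at 268 and 263 against 95.8 and 106 CPM. Adaptors gave 2 higher and 3 lower of 20 (25%), and the cascade 1 higher and 1 lower of 17 (11.8%, near the share of all genes). The kinase gene Fyn, known for its part in myelination, was lower in OPCs at 358 and 404 against 1915 and 2526 CPM (log2 fold change -2.65 ± 0.07; edgeR adjusted p = 2.15e-92). Mapk3, which encodes ERK1, was lower as well, at 35.1 and 34.5 against 183 and 179 CPM.

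Between OPCs and astroglia the 2 receptors ran in opposite directions. Pdgfra was 36.2-fold higher in OPCs (log2 fold change 5.18 ± 0.05; edgeR adjusted p = 5.49e-43) and Pdgfrb 23.0-fold lower (-4.52 ± 0.14; edgeR adjusted p = 4.58e-26). The alpha receptor ligands did too, with Pdgfa 2.92-fold higher in OPCs (1.55 ± 0.09; edgeR adjusted p = 4.82e-18) and Pdgfc 2.84-fold lower (-1.51 ± 0.12; edgeR adjusted p = 6.62e-14). Pdgfb was not called (0.80 ± 0.59; edgeR adjusted p = 0.236). So 2 genes were called higher and 2 lower, beside 68.4% of 14822 genes called in this comparison, 34.1% higher and 34.3% lower.

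**Figure D5:**
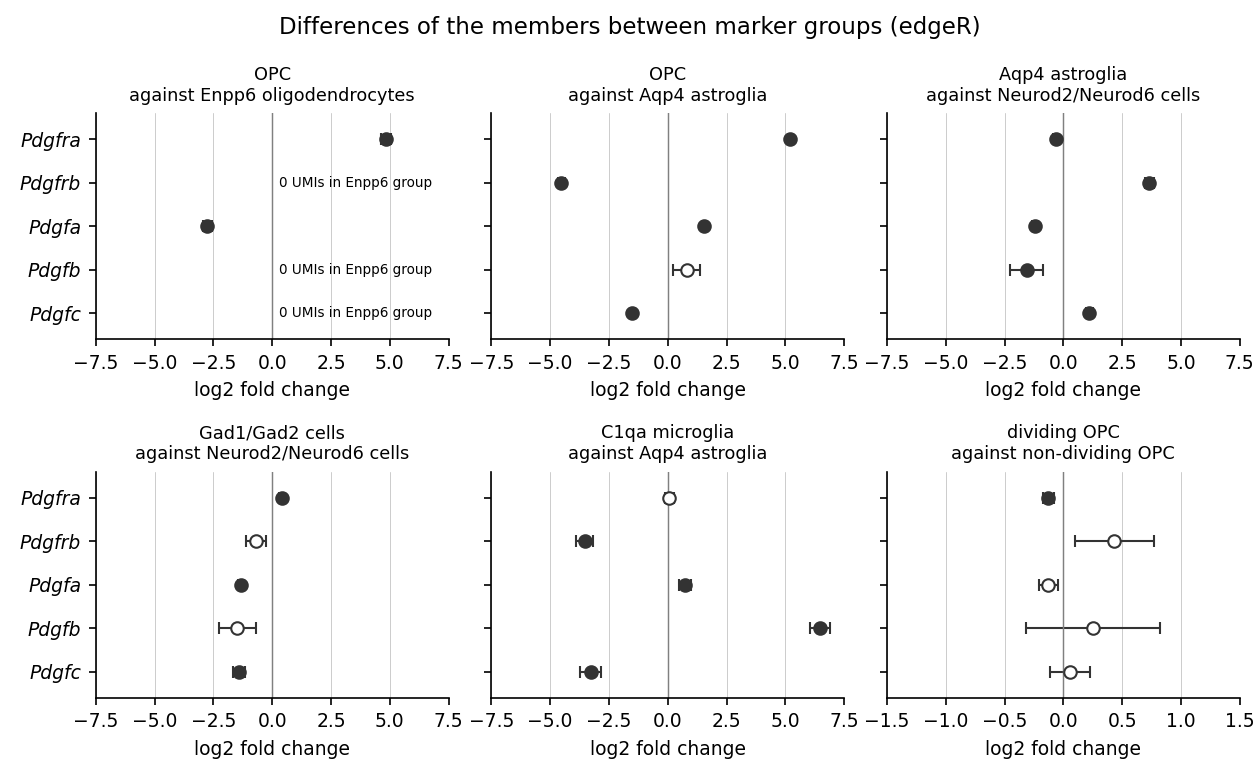
Log2 fold change of each receptor and ligand gene in the 6 comparisons, with the SE as bars; filled points passed the edgeR test at an adjusted p of 0.05 and open points did not, and the panel for dividing OPCs has a narrower axis. Pdgfra and Pdgfrb lie on opposite sides of 0 in OPCs against Aqp4 astroglia, and Pdgfb has its highest value in C1qa cells against astroglia.

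Pathway genes were split in OPCs against astroglia, with 29 called higher and 32 lower of 73 (83.6%, beside 68.4% of all genes) and a median of -0.04. Pik3r1, a regulatory subunit of PI3-kinase, stood at 236 and 275 CPM in OPCs and 48.8 and 54.1 CPM in astroglia. Pcsk5, a convertase of the furin family, stood at 18.4 and 19.7 against 2.45 and 2.37 CPM. The feedback genes Spry1 (173 and 170 against 48.8 and 45.1 CPM) and Spry4 (95.8 and 102 against 27.3 and 27.8 CPM) were higher in OPCs. Among ERK response genes 3 were called higher and 8 lower of 11. Phlda1 was higher, at 344 and 356 against 64.7 and 64.0 CPM, and Fos lower, at 639 and 620 against 3123 and 2982 CPM. Genes for proteins that bind or activate PDGF chains, Sparc (85.7 and 90.2 against 339 and 337 CPM) and Plat, tissue plasminogen activator (38.5 and 39.1 against 122 and 131 CPM), were lower in OPCs.

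Astroglia were also set against glutamatergic cells. Pdgfrb was 12.6-fold higher in astroglia (3.66 ± 0.19; edgeR adjusted p = 7.78e-19) and Pdgfc higher by a log2 fold change of 1.11 ± 0.16 (edgeR adjusted p = 1.28e-07). Pdgfa was lower (-1.20 ± 0.12; edgeR adjusted p = 3.45e-11), as were Pdgfb (-1.55 ± 0.70; edgeR adjusted p = 0.0462) and Pdgfra (-0.33 ± 0.10; edgeR adjusted p = 0.00249). All 5 genes were called, 2 higher and 3 lower, beside 71.2% of 14822 genes, 38.2% higher and 33.1% lower. The Pdgfb call was lost without cells of the Reln gate (-0.80; edgeR adjusted p = 0.515). It was also lost with gates at 3 UMIs, Scrublet doublets removed, a stricter cell filter and thinned cells (edgeR adjusted p = 0.115, 0.0769, 0.140 and 0.388). Pdgfra lost its call when cells were thinned to 2000 UMIs (edgeR adjusted p = 0.285).

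The glutamatergic Pdgfa level depends on which marker genes set the group. With Slc17a6 and Slc17a7, the vesicular glutamate transporters, in place of Neurod2 and Neurod6, the group of 275 and 368 cells read 165 and 147 CPM of Pdgfa. Of these cells, 63 and 73 also met the Reln gate and held 92.0% and 90.8% of the Pdgfa UMIs and all 54 and 68 Pdgfb UMIs. Without them Pdgfa stood at 22.5 and 21.6 CPM, close to the Neurod2/Neurod6 group without such cells.

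All 11 tested ERK response genes were called higher in astroglia than in glutamatergic cells, where 71.2% of all genes were called and 38.2% called higher, and the list had a median of 2.5 (log2 fold change) beside 0.06 over all genes. Etv4 stood at 161 and 164 against 24.2 and 15.3 CPM, Fos at 3123 and 2982 against 383 and 387 CPM, and Junb at 720 and 627 against 103 and 86.8 CPM. Feedback genes gave 10 higher and 5 lower of 17, with Spry2 at 108 and 109 against 25.4 and 19.5 CPM and Dusp4, an ERK phosphatase, lower at 3.24 and 3.81 against 49.4 and 53.2 CPM. Adaptors gave 10 higher and 8 lower of 20, with Stat3 at 146 and 156 against 22.6 and 24.7 CPM. Nrp1, a co-receptor of several growth factors and semaphorins, was lower, at 21.3 and 21.4 against 183 and 240 CPM. Pdgfd was at least 18.1-fold higher in astroglia, since glutamatergic cells had 0 UMIs.

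GABAergic cells had less of 2 alpha receptor ligands than glutamatergic cells. Pdgfa was lower (-1.33 ± 0.14; edgeR adjusted p = 2.81e-10) and so was Pdgfc (-1.42 ± 0.26; edgeR adjusted p = 2.01e-05). Pdgfra was higher by 0.40 ± 0.09 (edgeR adjusted p = 0.000509), at levels of 34.4 and 40.3 against 29.6 and 32.5 CPM. That is 1 gene called higher and 2 lower, beside 48.4% of 14822 genes, 24.6% higher and 23.8% lower. The Pdgfra call turned to -0.12 (edgeR adjusted p = 0.309) with gates at 3 UMIs. It was also lost with other marker genes (0.036; edgeR adjusted p = 0.829) and with cells thinned to 2000 UMIs (0.059; edgeR adjusted p = 0.871). Pdgfc was not called with other marker genes (-0.51; edgeR adjusted p = 0.223). Pdgfrb (edgeR adjusted p = 0.178) and Pdgfb (edgeR adjusted p = 0.121) were not called, but Pdgfrb was with gates at 1 UMI (-1.32; edgeR adjusted p = 0.00931). Pdgfb was called with other marker genes (-6.02; edgeR adjusted p = 3.42e-17). There the glutamatergic group is the Slc17a6/Slc17a7 one, whose 54 and 68 Pdgfb UMIs all lay in cells that also met the Reln gate.

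Pathway genes gave 22 higher and 17 lower of 73 in GABAergic against glutamatergic cells, 53.4% beside 48.4% of all genes, so the lists as a whole stood near the share of all genes. Etv1, an ETS factor of several neuron types, stood at 273 and 311 against 45.7 and 43.4 CPM. Nrp1 was lower in GABAergic cells, at 10.7 and 7.26 against 183 and 240 CPM. Foxo1, a transcription factor held back by Akt, was lower as well, at 5.22 and 5.15 against 16.5 and 18.6 CPM.

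C1qa cells differed from astroglia most in Pdgfb, which was higher by a log2 fold change of 6.46 ± 0.43 (edgeR adjusted p = 6.41e-16), with 18.0 and 22.3 against 0.47 and 0.14 CPM. Astroglia held few Pdgfb UMIs, and the value was 9.32 with cells thinned to 2000 UMIs. Without replicate 2, a log2 ratio of TMM-scaled CPM with a prior count added, not a refit, gave 5.18. Thinned astroglia held 0 Pdgfb UMIs in both libraries, so the 9.32 has no defined size. Pdgfrb was 11.6-fold lower in C1qa cells (-3.53 ± 0.38; edgeR adjusted p = 2.10e-10) and Pdgfc 9.72-fold lower (-3.28 ± 0.46; edgeR adjusted p = 9.99e-08). Pdgfa was called higher by 0.73 ± 0.24 (edgeR adjusted p = 0.00926), although 1 C1qa cell that also met the Reln gate held 37.5% of the group's Pdgfa UMIs in replicate 1, and other marker genes gave 0.25 (edgeR adjusted p = 0.400). Pdgfra was not called (0.07 ± 0.19; edgeR adjusted p = 0.762), and its CPM ran the other way, at 19.7 and 16.1 against 22.1 and 23.0 in astroglia. The count of 2 higher and 2 lower stands beside 63.3% of 14822 genes, 30.8% higher and 32.5% lower, whose median log2 fold change was -0.11.

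Among pathway genes 28 were called higher and 35 lower of 73 in C1qa cells (86.3%, beside 63.3% of all genes). Plau, urokinase, which activates PDGF-D, stood at 23.2 and 23.6 against 0.0791 and 0.0719 CPM. Inpp5d, a lipid phosphatase of blood-lineage cells, stood at 126 and 110 against 0.87 and 2.23 CPM. Spry2 was lower at 6.38 and 7.58 against 108 and 109 CPM, and Etv4 at 8.71 and 12 against 161 and 164 CPM.

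OPCs with at least 2 UMIs of Mki67 and Top2a together (628 and 743 cells) were compared with OPCs with none (2165 and 2141 cells). Pdgfra stood at 806 and 953 CPM in dividing and 909 and 956 CPM in non-dividing OPCs. The values overlapped across libraries, while each library was lower in dividing cells, and the log2 fold change was -0.13 ± 0.05 (edgeR adjusted p = 0.0355), close to the median of all genes, -0.09. The call was lost under 5 of the alternatives, among them gates at 1 UMI (edgeR adjusted p = 0.0686) and DESeq2 (adjusted p = 0.302). Pdgfa was not called (-0.13 ± 0.08, edgeR adjusted p = 0.235). It was called with Scrublet doublets removed (-0.24, edgeR adjusted p = 0.0168) and without cells of the Reln gate (-0.18, edgeR adjusted p = 0.0459). Thus none of the 5 genes was called higher and 1 lower, beside 37.3% of 15087 genes, 14.2% higher and 23.1% lower.

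Of 73 pathway genes, 23 were called lower and 5 higher in dividing OPCs, with a median of -0.12. Their share called, 38.4%, and their median lay near the 37.3% and -0.09 of all genes. The ERK response genes gave none higher and 7 lower of 11, with Junb at 155 and 133 against 199 and 164 CPM. Among small GTPase genes, Hras (149 and 136 against 118 and 117 CPM) was higher in dividing OPCs, and Nras (87.2 and 96.8 against 94.5 and 106 CPM) was lower. Spry1 was lower, at 153 and 154 against 183 and 178 CPM.

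The genes whose pattern was most like each receptor or ligand were ranked by Pearson's r of log2(CPM + 1) over the 10 sums of the 5 larger groups, among 11275 genes. For Pdgfra they were Cspg4, which set the OPC group (r = 0.997), Tmem255b, Lhfpl3, C1ql1 and Sox10. For Pdgfrb they were 2900052N01Rik (r = 0.992), Slc14a2, Nedd9, Pdzph1 and Lxn. Pdgfa had the loosest partners, among them Slc4a10 (r = 0.954), Fchsd2, Ust and Tmem181a. For Pdgfb they were Rasa4 (r = 0.996), Serpinb6a, Gngt2, Havcr2 and Ggt5, and for Pdgfc Atp2b4 (r = 0.997), Osbpl1a, Slc5a3, Wwc1 and Camk2g. The points share 2 libraries and differ mostly by cell group, so these values describe likeness over 5 groups.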

How the data were processed

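Droplet libraries of sorted P3 mouse pallium cells were analysed. The authors deposited unnormalized UMI counts for each gene in each barcode, written by Cell Ranger 6.0.2 per the file headers. Seurat 4.1.0, R 4.1.0 and mm10 appear in the submitters' processing notes, and which annotation was counted is not given there or in other sources used here. Barcodes under 500 genes or over 10% mitochondrial UMIs were removed, and doublets were not, as removal (Scrublet) was an alternative. Gates needed 2 UMIs, or 1 each of Cspg4 and Olig2. Counts were summed per library and group, and CPM were computed from the sums. Groups with at least 20 cells in both libraries (5 groups, 10 sums, 4 residual degrees of freedom) entered edgeR 4.0.16 in R 4.3.3 with TMM and filterByExpr. OPCs against Enpp6 cells used at least 5 cells in place of the planned 20 (8 groups, 16 sums, 7 degrees of freedom), and dividing OPCs a model of 6 groups, 12 sums and 5 degrees of freedom. Library numbers pair the sums, since both sums of a number come from the same library. Genes that set the groups were left out of counts of called genes. Intervals and limits of 3 counts cover counting error only. Named pathway genes were up to 4 called per list and comparison with the largest change. Some genes that these rules select are not reported here. The genes and lists were chosen with earlier results of these data known. The code was tested on simulated data. Python 3.11.15, scipy 1.17.1, scanpy 1.11.5 and DESeq2 1.42.0 were used.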

Additional observations from a re-analysis of the deposited data

How the results depend on the processing

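Of 390 alternative values of the 5 genes' log2 fold changes, 343 counted as unchanged, 16 lost a call, 4 gained one, 1 reversed and 26 with no call or no test moved. Where a test could be made, unchanged means the same direction and side of the threshold. Values without a test, and uncalled values of the other direction, counted as unchanged if they lay within the SE of the main value. Leaving out the replicate block changed 1 of 30 calls, Pdgfra in dividing OPCs (-0.12, edgeR adjusted p = 0.318), and moved that comparison's genes called from 5623 to 3147; DESeq2 gave 3372. That Pdgfra value was also lost with gates at 1 UMI (-0.12), gates at 3 UMIs (-0.13), thinned cells (-0.11) and DESeq2 (-0.10). Pdgfra in GABAergic against glutamatergic cells reversed to -0.12 with gates at 3 UMIs, and lost its call with other marker genes and with thinned cells. Pdgfa in OPCs against Enpp6 cells fell to -0.011 with other marker genes, which called 3050 genes in place of 1967. Thinning cells to 2000 UMIs, which leaves fewer counts, lowered the genes called to 403 in that comparison, 6723 in OPCs against astroglia, 4099 in GABAergic against glutamatergic cells, 5047 in C1qa cells and 2341 in dividing OPCs.

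Leaving out 1 library gave values without a test: Pdgfra in OPCs 3.35 to 6.43 against Enpp6 cells and 5.18 to 5.23 against astroglia, Pdgfrb in astroglia against glutamatergic cells 3.43 to 3.73, Pdgfa in GABAergic cells -1.63 to -1.14, Pdgfb in C1qa cells 5.18 to 6.59, and Pdgfra in dividing OPCs -0.21 to -0.077. They are not refits but differences of TMM-scaled log2 CPM in the library kept, with a prior count of 2 added. The prior count pulls values from few UMIs toward 0, so these ranges can understate the spread between libraries. Of 405 levels and 225 shares of cells, 184 and 112 did not count as unchanged, which needed a shift smaller than the SD of the 2 libraries. These counts include values at 0 in both libraries that stayed at 0, since their SD is 0. Where the 2 libraries differ, leaving 1 out always gives a shift smaller than the SD, so those entries could not count as moved. The rest shifted by at least the SD, with the cause not tested. Main levels that did, in CPM, were as follows: Pdgfra in OPCs 923 to 1020 (thinned); Pdgfrb in astroglia 23.7 to 22.6 (gates at 1 UMI), 23.4 (other markers), 23.8 (Scrublet doublets removed, and Reln gate), 21.4 (stricter cell filter) and 27.9 (thinned); Pdgfa in OPCs 35.9 to 32.7 (Reln gate); Pdgfb in C1qa cells 20.1 to 16.4 (gates at 1 UMI) and 23.4 (thinned); Pdgfc in astroglia 13.1 to 11.4 (other markers). The Reln gate and the 5-cell minimum were chosen after seeing the data. Values of the Enpp6, endothelial, mural and fibroblast groups are limited by their few cells.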

Other observations

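Cells outside the groups also held PDGF transcripts. The 3566 and 2959 cells that met no gate, at medians of 2791 and 3774 UMIs, read 195 and 188 CPM of Pdgfra, 9.29 and 8.82 CPM of Pdgfrb and 36.5 and 41.9 CPM of Pdgfa. They held 9.0% of all Pdgfra UMIs, 26.6% of Pdgfa, 27.0% of Pdgfb and 20.5% of Pdgfc. The 818 and 985 cells that met several gates read 443 and 518 CPM of Pdgfra and held 17% of its UMIs. Scrublet marked 434 of the 818 in replicate 1 as doublets, against 862 of all 11228 cells. In replicate 2 it marked 429 of the 985, against 778 of all 10965 cells. Reln-gate cells themselves had little receptor transcript, at 5.2 and 14.9 CPM of Pdgfra, below the 22.1 and 23.0 CPM of astroglia in both libraries. In them, Pdgfrb was at 1 UMI in each library.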
